A study of Rattus norvegicus with 8 samples.

Results

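The 8 genes described here encode contactins (Cntn1 to Cntn6) and their membrane partners of the Caspr family (Cntnap1 and Cntnap2). They were selected by gene symbol, and 7 of the 8 were tested among the 14309 genes that passed the filter on low counts, out of 28909 symbols in the count table. These genes and the gene lists below were chosen with earlier results of these data known. Their counts beside the shares of all genes are therefore descriptions and not independent support. Cntnap2 was not analysed here. Contactins are cell adhesion proteins built of immunoglobulin and fibronectin type III domains and held in the outer leaflet of the membrane by a GPI anchor, so that they signal and assemble through partners in the same membrane and on the facing cell. Contactin-1 and Caspr, the product of Cntnap1, form the axonal complex of the paranodal junction beside the node of Ranvier, while contactin-2 (TAG-1) works with Caspr2 in the juxtaparanode, where Kv1 potassium channels gather. The remaining contactins are known for their part in axon guidance, in the choice of synaptic partners and in the maturation of neuronal circuits.

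Primary hippocampal neurons of Sprague-Dawley rats were grown on filter inserts, which keep cell bodies on the upper side and let axons and dendrites grow to the lower side. Total RNA of the somata and of the processes was depleted of ribosomal RNA and sequenced, from control cultures and from cultures kept for 48 h, from day 18 to day 20 in vitro, in picrotoxin (PTX). PTX blocks GABA-A receptors and so raises network activity, a standard way to set off homeostatic downscaling of excitatory synapses. Each of the 4 conditions (somata control, somata PTX, processes control, processes PTX) had 2 libraries, numbered 1 and 2 in the labels, and since the labels do not state that these came from separate cultures, p-values measure only the spread between these samples.

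The somata libraries held between 12290890 and 14520831 counts and the processes libraries between 15120334 and 18455662. Genes of the mitochondrial genome took 22.6% to 26.7% of the counts in somata and 68.5% to 72.5% in processes, which left 9517542 to 11227599 counts for all other genes in somata and 4702054 to 5491237 in processes. The 7 members together received 7828 to 9666 counts per somata library and 2780 to 3282 per processes library, so that their changes were measured less precisely in processes. The unit of level is CPM (reads per 1e6, scaled with TMM factors). Levels were compared between libraries within a gene or a summed marker list, since transcript lengths were not used. Where a gene is named the most abundant of a list, this rests on CPM without correction for length. Differences are log2 fold changes with their standard error (SE) from edgeR's quasi-likelihood test, and a gene was called at an adjusted p under 0.05 over all 14309 genes.

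PTX lowered the RNA of 1 contactin, Cntn2, in both compartments. No other tested member was called in either PTX comparison by the main fit, which did not pair the replicates. In somata, 0 members were called higher, against 2.09% of all tested genes, and 1 of 7 was called lower, against 1.5%. In processes the counts were again 0 higher, against 1.64%, and 1 of 7 lower, against 2.1%. The median log2 fold change of the 7 members was -0.21 in somata and -0.03 in processes, beside -0.01 for all tested genes in either comparison. The labels do not say what the replicate numbers mark, but they were taken to pair the libraries. The fit with the replicate number as a block called 3 members lower in somata (Cntn2, Cntn5 and Cntn6) and 0 higher. In that fit 6.79% of all genes were called lower and 7.21% higher. In processes it called Cntn2 lower and Cntnap1 higher, where 6.09% were lower and 5.1% higher.

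Cntn2 encodes contactin-2, an axonal adhesion protein that binds L1 and the L1-related NrCAM. The somata control libraries held 236 and 275 Cntn2 reads (10.03 and 10.8 CPM), and the somata PTX libraries 129 and 119 (4.64 and 5.04 CPM). In processes, 70 and 52 reads (7.81 and 6.11 CPM) were counted in control and 18 and 25 (2.07 and 2.51 CPM) after PTX. Both PTX libraries lay below both control libraries in each compartment, and the order of the 4 conditions was somata control, processes control, somata PTX and processes PTX, with no overlap between neighbours in that order. Cntn2 RNA after PTX was 46.5% of control in somata, a log2 fold change of -1.10 (SE 0.168, adjusted p = 0.00587), and 33.1% of control in processes, a log2 fold change of -1.60 (SE 0.237, adjusted p = 0.00567). Only 82 of the 14309 tested genes had a lower log2 fold change than Cntn2 in somata, and likewise 82 in processes. Of these, 52 in somata and 27 in processes were themselves called lower. Subtracting the somata effect of PTX on Cntn2 from the processes effect gave -0.49 (SE 0.294, adjusted p = 1), so a difference between the compartments was not resolved.

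With 1 library left out, the fall of Cntn2 stayed between -1.17 and -1.05 in somata and between -1.76 and -1.41 in processes. It lost its call in somata without replicate 2 of somata control (-1.06, adjusted p = 0.0688) or without replicate 1 of somata PTX (-1.05, adjusted p = 0.0649), and in processes without replicate 1 of processes control (-1.41, adjusted p = 0.0586). Over the 17 alternatives tried, the adjusted p of Cntn2 lay between 2.02e-07 and 0.0688 for somata, and between 1.45e-06 and 0.0586 for processes. In bulk RNA, fewer cells of a type and less RNA per cell cannot be told apart, so marker levels are given beside this result.

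The 4 markers of excitatory neurons (Slc17a7, Camk2a, Neurod6 and Prox1) summed to 432 and 419 CPM in somata control and to 287 and 274 CPM in somata PTX. In processes they summed to 978 and 731 CPM in control and to 513 and 514 CPM after PTX. The gene with the highest mean over all 8 libraries, Camk2a, encoding a subunit of the synaptic kinase CaMKII, fell in somata from 118 and 112 to 50.2 and 55.3 CPM, and in processes from 772 and 572 to 234 and 258 CPM. Slc17a7, the vesicular glutamate transporter gene and the most abundant of the 4 in somata, was at 263 and 256 CPM in somata control and 214 and 198 CPM in somata PTX (-0.33, adjusted p = 0.249). In processes Slc17a7 rose from 171 and 130.5 to 261 and 240.2 CPM (0.73, adjusted p = 0.0172), against the fall of the sum. In each compartment 2 of 4 markers, Camk2a and Neurod6, were called lower, and with the replicate block 4 were lower in somata and 3 in processes, beside Slc17a7 higher in processes. The shares of all tested genes called lower were 1.5% in somata and 2.1% in processes, or 6.79% and 6.09% with the block. None of the 4 was at 0 in any library, and their part in the fall of Cntn2 was not tested.

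The 7 markers of inhibitory neurons (Gad1, Gad2, Slc32a1, Sst, Pvalb, Vip and Npy) had higher sums after PTX, 341 and 239.7 CPM in somata control, 550.3 and 418 CPM in somata PTX, 174 and 135 CPM in processes control and 287 and 219 CPM in processes PTX. Gad2, a GABA-producing enzyme and the most abundant of them, rose in somata from 155 and 113 to 287 and 221 CPM, and in processes from 90.5 and 71.2 to 178 and 129 CPM. Of the 6 inhibitory markers tested, 2 (Gad1 and Gad2) were called higher in somata and 1 (Gad2) in processes, or 5 and 2 with the replicate block. The shares of all tested genes called higher were 2.09% in somata and 1.64% in processes, or 7.21% and 5.1% with the block. Slc32a1 stayed level in somata (-0.02, adjusted p = 0.976), and none of the 7 was at 0. The 6 general neuronal markers summed to 1863 and 1686 CPM in somata control against 1669 and 1535 after PTX, and to 5497 and 5159 CPM in processes control against 4632 and 3931 after PTX. Map2, the dendritic microtubule protein, was the most abundant of them, with 985 and 887 CPM in somata control and 861 and 812 CPM after PTX. Its level in processes was 4693 and 4524 CPM in control and 3935 and 3369 CPM after PTX. Of these 6, 1 was called lower in somata and 0 in processes, or 3 and 4 with the replicate block, and none was at 0. Here the shares of all tested genes called lower were 1.5% and 2.1%, or 6.79% and 6.09% with the block.

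**Figure D1:**
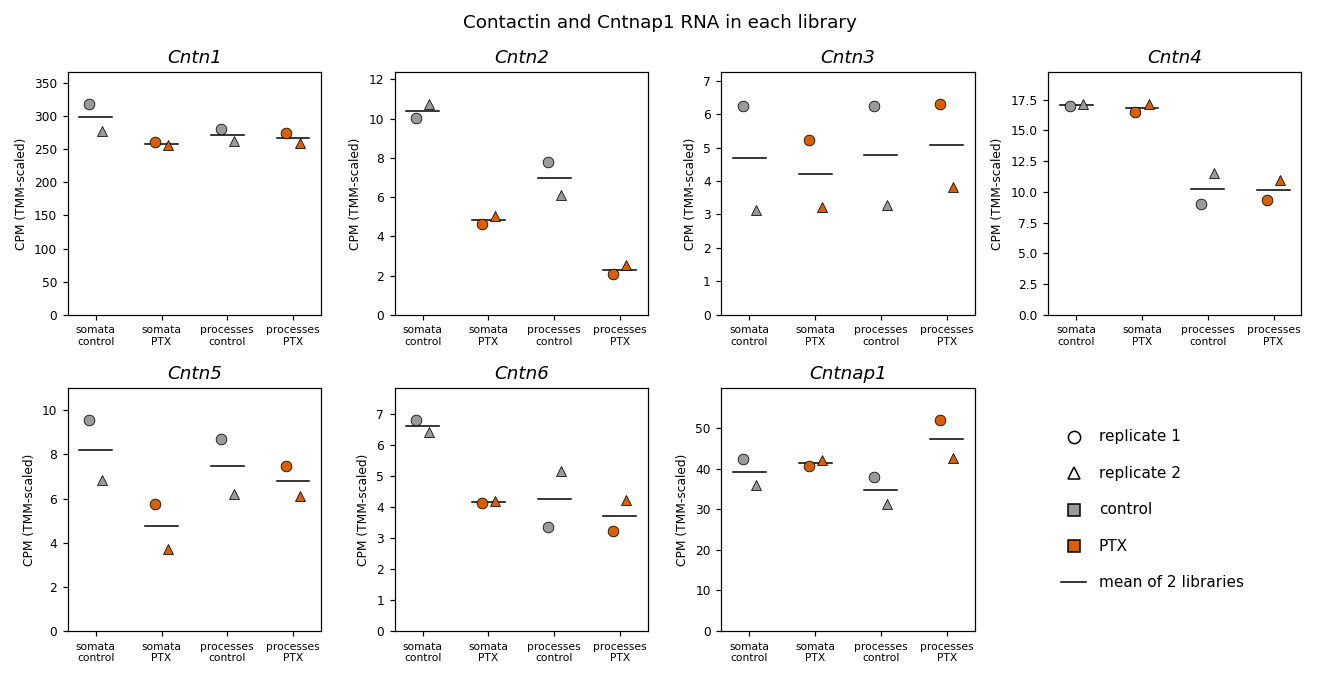
TMM-scaled CPM (vertical axes, from 0) of the 7 tested genes in the 8 libraries, by condition (horizontal axes); circles are replicate 1, triangles replicate 2, grey control, orange PTX, and bars the mean of 2 libraries. Cntn2 fell from 10.03 and 10.8 to 4.64 and 5.04 CPM in somata, in processes the step was 7.81 and 6.11 to 2.07 and 2.51 CPM, and the circles of Cntn3 lay above the triangles in each condition.

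Cntn1, the contactin of the paranodal junction, was measured at 319 and 278 CPM in somata control, 261 and 256 CPM in somata PTX, 280.1 and 263 CPM in processes control and 274 and 259.6 CPM in processes PTX. It received 2239 to 7503 reads per library, and its values lay close together across the conditions. Both somata PTX libraries lay below both somata control libraries, but the log2 fold change of -0.21 (SE 0.114, adjusted p = 0.447) was not called. In processes the PTX and control values overlapped, with a log2 fold change of -0.03 (SE 0.115, adjusted p = 0.95).

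Cntnap1 encodes Caspr, which needs contactin-1 to reach the axonal surface. Its level was 42.3 and 36.0 CPM in somata control and 40.6 and 42.2 CPM in somata PTX, with 919 to 1128 reads per library. The values overlapped in somata, where the log2 fold change was 0.08 (SE 0.136, adjusted p = 0.869). In processes, it was 38.0 and 31.2 CPM in control and 52.0 and 42.7 CPM after PTX. Both PTX libraries were higher than both control libraries there, and the log2 fold change of 0.45 (SE 0.146) was not called (adjusted p = 0.139), while the fit with the replicate block gave 0.45 with an adjusted p of 0.00941, and that without a filter 0.46 with 0.0389 (range over its 17 alternatives 0.00941 to 0.453). The difference between these PTX effects, 0.37 (SE 0.2), had an adjusted p of 1. In the RefSeq gene table all tested members except Cntn6 overlap other genes, among them LOC120096452 for Cntn2 and Ccr10 for Cntnap1. The strand setting of the counting was not stated, so reads of the shared stretches are of uncertain origin.

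Cntn4, Cntn5 and Cntn6 encode contactins of developing sensory and hippocampal circuits that bind amyloid precursor proteins, receptor tyrosine phosphatases or Notch. Cntn4 did not move with PTX beyond its replicate spread. It was measured at 17.0 and 17.1 CPM in somata control, 16.5 and 17.2 CPM in somata PTX, 9.03 and 11.5 CPM in processes control and 9.30 and 10.96 CPM in processes PTX. PTX and control values overlapped in both compartments. The log2 fold changes were -0.02 (SE 0.136, adjusted p = 0.974) in somata and -0.01 (SE 0.171, adjusted p = 0.983) in processes.

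Cntn5 was measured at 9.56 and 6.85 CPM in somata control and 5.75 and 3.73 CPM in somata PTX, from 225, 175, 160 and 88 reads. Replicate 1 was higher than replicate 2 in both groups, and the groups did not overlap. The log2 fold change of -0.78 (SE 0.246) was not called (adjusted p = 0.129), but was with the replicate block (-0.79, adjusted p = 0.000707) and without a filter (-0.77, adjusted p = 0.00343; range over 17 alternatives 0.000707 to 0.558). With 1 library left out, the log2 fold change in somata ran from -1.14 (without replicate 1 of somata PTX) to -0.51 (without replicate 2 of somata PTX). In processes Cntn5 was measured at 8.70 and 6.22 CPM in control and 7.46 and 6.13 CPM after PTX. These values overlapped, with a log2 fold change of -0.14 (SE 0.29, adjusted p = 0.867).

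Cntn6 was measured at 6.80 and 6.42 CPM in somata control and 4.13 and 4.19 CPM in somata PTX, from 160, 164, 115 and 99 reads. Its replicates lay close together in somata and the groups did not overlap. The log2 fold change of -0.67 (SE 0.206) had an adjusted p of 0.12, of 0.0106 with the replicate block, of 0.0259 by the likelihood ratio test and of 0.0466 without a filter (range over 17 alternatives 0.0106 to 0.457). In processes its level was 3.35 and 5.17 CPM in control and 3.22 and 4.22 CPM after PTX, from 28 to 44 reads per library. The groups overlapped there and the log2 fold change was -0.18 (SE 0.27, adjusted p = 0.805).

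Cntn3, a contactin of forebrain neurons, had 147 and 80 reads in somata control, 145 and 76 in somata PTX, 56 and 28 in processes control and 55 and 38 in processes PTX. In CPM these were 6.25 and 3.13, 5.21 and 3.22, 6.24 and 3.29, and 6.32 and 3.82. Replicate 1 was the higher library in each of the 4 conditions, and PTX and control overlapped in both compartments. The PTX log2 fold change was -0.14 (SE 0.373, adjusted p = 0.925) in somata and 0.07 (SE 0.451, adjusted p = 0.968) in processes.

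The replicate numbers were compared after these values were seen, with the coefficient of the number in the blocked fit. Cntn3 was 1.79-fold higher in replicate 1 than in replicate 2 (log2 difference of replicate 2 minus replicate 1 -0.84, SE 0.142, adjusted p = 0.000353). Cntn5 was 1.40-fold higher in replicate 1 (-0.48, SE 0.121, adjusted p = 0.01), also in 4 of 4 conditions. These 2 of 7 members were called lower in replicate 2, against 7.11% of all tested genes, and 0 members were called higher, against 5%. For Cntn3 the difference between replicate numbers was larger than any PTX or compartment difference. The adjusted p of Cntn2 for the replicate number was 0.907 and that of Cntn4 was 0.483, with replicate 1 higher in 1 and 0 of the 4 conditions. What the numbers mark is not stated.

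**Figure D2:**
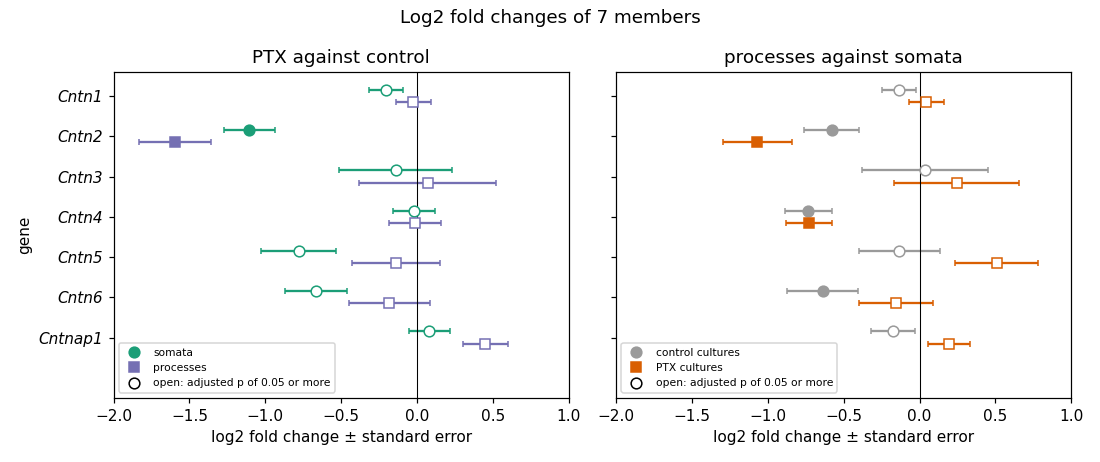
Log2 fold changes (horizontal axes) of the 7 tested genes (vertical axis), PTX against control on the left and processes against somata on the right; bars are the SE, and filled symbols passed an adjusted p of 0.05. With PTX only Cntn2 is filled (-1.10 in somata, -1.60 in processes), while between compartments Cntn2, Cntn4 and, in control cultures, Cntn6 are filled.

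A difference between compartments in the response to PTX was not resolved for any member. For the interaction, which subtracts the PTX effect of somata from the effect of processes, 0 members were called, and 0% of all tested genes were called higher and 0% lower by edgeR's quasi-likelihood test. Before adjustment 572 genes, or 3.997% of all tested genes, had an unadjusted p under 0.05 in that test, with 0 of the 7 members among them. That share is no larger than the threshold of 0.05 would pass without any effect. The absence of members from these genes is therefore not informative. The likelihood ratio test and DESeq2 each called 4 genes. With the replicate block 0.0769% of genes were called higher and 0.028% lower, again without a member, although the unadjusted p was 0.014 for Cntn5 and 0.0217 for Cntnap1. The estimates ran from -0.49 for Cntn2 to 0.64 for Cntn5 (SE 0.38), with a median of 0.21 over the members and -0.01 over all tested genes.

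Between compartments, all members called without the block were lower in processes than in somata, in shares to be read beside those of all tested genes. In control cultures 3 of 7 (Cntn2, Cntn4 and Cntn6) were called lower, against 21.9% of all tested genes, and 0 higher, against 25.8%. In PTX cultures 2 of 7 (Cntn2 and Cntn4) were called lower, against 24%, and 0 higher, against 25.7%. The median of the members was -0.18 in control and 0.04 in PTX cultures, beside -0.05 for all tested genes in both. The replicate block called the same 3 in control cultures, where 28% of genes were lower and 29.8% higher. In PTX cultures it called the same 2 lower and Cntn5 higher, where 29.6% were lower and 30% higher. Cell type markers differed in the same contrast: in control cultures 3 of 6 tested astrocyte markers were higher in processes and 1, Slc1a3, lower (median 0.53), and 4 of 6 inhibitory markers were lower (median -1.13). Their part in the member values was not tested.

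Cntn4 was lower in processes by the same amount in both kinds of culture, with log2 fold changes of -0.73 (SE 0.154, adjusted p = 0.00282) in control and -0.73 (SE 0.153, adjusted p = 0.00262) in PTX cultures. Its processes libraries, at 9.03 to 11.5 CPM, all lay below its somata libraries, at 16.5 to 17.2 CPM. This call was kept in all 17 alternatives in each kind of culture, with an adjusted p of at most 0.029 and 0.0243. Cntn2 was lower in processes by -0.58 (SE 0.182, adjusted p = 0.0229) in control cultures and by -1.07 (SE 0.226, adjusted p = 0.00271) in PTX cultures. The second of these was called in all 17 alternatives. The first was not called by DESeq2 (-0.57, adjusted p = 0.0969), nor without replicate 1 (-0.63, adjusted p = 0.063) or replicate 2 (-0.53, adjusted p = 0.105) of somata control or replicate 2 of processes control (-0.41, adjusted p = 0.146), in a range of 1.86e-07 to 0.146.

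Cntn6 was lower in processes of control cultures (-0.64, SE 0.234, adjusted p = 0.0435) with no overlap between its libraries. That call was lost with DESeq2 (-0.63, adjusted p = 0.122) and without replicate 1 (-0.60, adjusted p = 0.145) or 2 (-0.69, adjusted p = 0.0933) of somata control, 1 (-0.64, adjusted p = 0.0569) or 2 (-0.64, adjusted p = 0.0585) of somata PTX, or 1 of processes control (-0.35, adjusted p = 0.29), in a range of 2.49e-06 to 0.29. In PTX cultures its difference was -0.15 (SE 0.243, adjusted p = 0.619). Cntn5 showed -0.13 (SE 0.264, adjusted p = 0.704) in control cultures and 0.51 (SE 0.274, adjusted p = 0.148) in PTX cultures. The latter passed with the replicate block (0.53, adjusted p = 0.0163) and without replicate 1 of somata PTX (0.86, adjusted p = 0.0472), and was -1.32 with library size only, in a range of 0.000301 to 0.528. Cntn1, Cntn3 and Cntnap1 had log2 fold changes between -0.18 and 0.04 in control cultures and between 0.04 and 0.24 in PTX cultures, none of them called.

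These compartment values depend on the scaling, for a reason that was not tested. Scaled by library size only, the median of all tested genes moved from -0.05 to -1.86 in control and -1.87 in PTX cultures, and all 7 members were then called lower in processes. The split of calls moved from 3688 higher and 3135 lower to 191 and 13271 in control cultures, and from 3680 and 3441 to 181 and 13318 in PTX cultures. Upper quartile normalization gave medians of -0.25 and -0.23 and splits of 2750 and 4704 and of 2904 and 4768. Against these medians, the library size values of -2.54 for Cntn4 in control and -2.55 in PTX cultures, and of -2.40 and -2.89 for Cntn2, remained lower than the typical gene. For PTX in somata, scaling by library size changed the split from 299 higher and 214 lower to 351 and 140, and in processes from 235 and 300 to 237 and 220.

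Among the L1 family, transmembrane relatives that bind contactins (L1cam, Chl1, Nrcam and Nfasc), 1 of 4 was called lower with PTX in each compartment and 0 higher, beside 1.5% of all tested genes lower and 2.09% higher in somata and 2.1% and 1.64% in processes. L1cam, an axonal adhesion protein that binds contactin-2, was measured at 115 and 109 CPM in somata control and 63.7 and 52.5 CPM in somata PTX. In processes its level was 55.5 and 49.2 CPM in control and 30.7 and 24.2 CPM after PTX. L1cam therefore fell in the same 2 comparisons as Cntn2, with no overlap between the groups, by a log2 fold change of -0.94 in both (SE 0.135, adjusted p = 0.00425 in somata; SE 0.15, adjusted p = 0.00827 in processes). Its call in processes was lost without replicate 1 of processes control or replicate 2 of processes PTX, with an adjusted p of at most 0.0798 over a range of -1.11 to -0.77. The list's median was -0.25 in somata and -0.05 in processes.

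Of the 14 listed genes of the Kv1 channel complex at the juxtaparanode, 3 were called higher and 0 lower with PTX in somata, and 1 higher and 1 lower in processes. Of all tested genes 2.09% were higher and 1.5% lower in somata, and 1.64% and 2.1% in processes. With the replicate block the counts were 4 and 0 in somata, against 7.21% and 6.79% of all genes, and 3 and 2 in processes, against 5.1% and 6.09%. Lgi2, a secreted ligand of the ADAM22 and ADAM23 receptors, was measured at 20.5 and 14.0 CPM in somata control against 71.6 and 54.6 CPM after PTX, and at 23.1 and 18.6 CPM in processes control against 90.1 and 60.3 CPM. It rose by a log2 fold change of 1.87 (SE 0.227, adjusted p = 0.00175) in somata and 1.85 (SE 0.243, adjusted p = 0.00392) in processes, in all 17 alternatives. The channel subunit gene Kcna1 rose in somata from 14.9 and 17.6 to 30.1 and 33.5 CPM (0.97, SE 0.186, adjusted p = 0.0173). Adam23 rose there from 63.2 and 57.3 to 86.2 and 85.9 CPM (0.51, SE 0.109, adjusted p = 0.0273). Kcnab2, a cytoplasmic channel subunit, fell in processes from 69.4 and 50.5 to 37.0 and 30.8 CPM (-0.83, SE 0.165, adjusted p = 0.0226).

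Leaving out any 1 of the 4 somata libraries ended the calls of Kcna1 (0.85 to 1.08, adjusted p up to 0.137) and Adam23 (0.43 to 0.58, adjusted p up to 0.277), and library size scaling that of Adam23. Without replicate 1 of processes control or either processes PTX library Kcnab2 was not called (-0.96 to -0.58, adjusted p up to 0.17). Of the Kv1 complex genes called with PTX, Lgi2 moved opposite to Cntn2 in both compartments. Kcna1 and Adam23, called only in somata, moved opposite to it there. Kcnab2, called only in processes, moved the same way as Cntn2. Where the proteins of these genes lie in the cultures was not tested. The list's median was 0.10 in somata and 0.08 in processes.

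The other lists held no gene called with PTX. These were the further Cntnap genes (3 tested of 7 listed), the 5 IgLON genes, which encode other GPI-anchored adhesion proteins, 12 ligands and receptors of contactins, and 10 genes of the membrane skeleton at the axon initial segment, node and paranode. Their medians with PTX were 0.04, -0.40, -0.05 and -0.19 in somata and -0.09, 0.02, 0.07 and -0.11 in processes, in that order. With the replicate block, the calls in somata were 1 higher and 1 lower of the Cntnap genes and 2, 1 and 3 lower of the other lists, and in processes 3 genes of the membrane skeleton were lower. These stand beside 7.21% of all genes higher and 6.79% lower in somata, and 6.09% lower in processes.

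Between compartments, 7 of the 10 membrane skeleton genes were called higher and 0 lower in processes of control cultures, and 7 higher and 1 lower (Epb41l3) in PTX cultures. The list's medians were 0.86 and 0.97, beside -0.18 and 0.04 for the members, and 25.8% and 25.7% of all tested genes were higher. In control cultures, where 21.9% of all tested genes were lower in processes, the counts called lower were 2 of 4 in the L1 family, 2 of 3 further Cntnap genes, 3 of 5 IgLON genes, 4 of 12 ligands and receptors and 8 of 14 Kv1 complex genes. Called higher there were 0, 0, 1, 1 and 5, in that order. In PTX cultures, where 24% of all genes were lower and 25.7% higher, 1, 2, 1, 3 and 7 were lower and 0, 0, 1, 3 and 5 higher. With the replicate block, 28% of all tested genes were lower and 29.8% higher in control cultures, and 29.6% and 30% in PTX cultures. In control cultures the block called 4 of the L1 family lower and 1 membrane skeleton gene, Epb41l3, lower. It called 3 ligands and receptors higher and 6 lower there, and 6 Kv1 complex genes higher. In PTX cultures 2 of the L1 family and 2 IgLON genes were lower with the block. Of the ligands and receptors 4 were higher and 4 lower there, and 6 Kv1 complex genes were higher. The other counts of these lists were unchanged.

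The genes whose profile over the 8 libraries lay nearest to that of Cntn2 were St18, Dgkg and Prdm8, at distances of 0.443, 0.489 and 0.605 between centred log2 CPM profiles. They were picked for this likeness, so their response to PTX is not a separate result.

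For Cntn4 the nearest were Rictor, Pdhx and Pan2, at 0.149 to 0.174, and for Cntn1 they were Tet2, AABR07019086.1 and Mtmr9, at 0.125 to 0.144. Trpm3, Nudt18 and Myo16 lay nearest to Cntn3 (0.437 to 0.493), LOC691995, Stmn1 and Slc9a3r2 to Cntn5 (0.324 to 0.505), Lrfn2, Cdh10 and Pcmtd2 to Cntn6 (0.441 to 0.448), and Idh2, Sh2b3 and Spata5 to Cntnap1 (0.241 to 0.274). Flat profiles such as that of Cntn1 give short distances to many genes. With Pearson correlation as the measure, 6 of the 21 pairs were the same.

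Several of these genes are neighbours in the genome. In the RefSeq gene table of assembly GRCr8, Cntn3, Chl1, Cntn6 and Cntn4 follow one another on chromosome 4 as the next protein-coding genes, and Cntn2 lies beside Nfasc on chromosome 13. Nfasc had PTX log2 fold changes of -0.28 (adjusted p = 0.462) in somata and -0.25 (adjusted p = 0.512) in processes, where Cntn2 had -1.10 and -1.60. Chl1, between Cntn3 and Cntn6, had -0.13 (adjusted p = 0.639) and 0.25 (adjusted p = 0.274).

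Promoters from RefSeq (GRCr8) were matched for 6 of the 8 genes, and those of Cntn2, which fell with PTX, and Cntn4, which stayed level, are shown to set the 2 response types side by side. Each is the 250 bases before the annotated start, 5′ to 3′ on the gene's strand. Both strands were searched for TGACGTCA (the cyclic AMP response element), TGACG (a part of it), CACGTG (an E-box), TGAGTCA (an AP-1 site) and GGGCGG (a GC box), and capitals mark matches. Of 33469 promoters of this length, these were held by 1.59%, 18.2%, 5.59%, 4.05% and 30.5%. The first is chr13:46528026-46528275 on the minus strand and the second chr4:140180571-140180820 on the plus strand.
Cntn2: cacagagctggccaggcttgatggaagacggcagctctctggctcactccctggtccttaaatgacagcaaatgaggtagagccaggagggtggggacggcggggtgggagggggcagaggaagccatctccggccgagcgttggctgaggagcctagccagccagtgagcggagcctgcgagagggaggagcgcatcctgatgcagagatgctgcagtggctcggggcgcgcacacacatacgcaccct
Cntn4: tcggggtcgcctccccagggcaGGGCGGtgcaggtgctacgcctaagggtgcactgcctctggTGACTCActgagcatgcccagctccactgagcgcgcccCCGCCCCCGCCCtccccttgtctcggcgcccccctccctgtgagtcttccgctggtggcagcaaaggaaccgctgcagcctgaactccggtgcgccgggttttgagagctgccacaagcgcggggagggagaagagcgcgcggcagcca
The Cntn2 stretch had 64.4% G and C and 13 CpG dinucleotides, against medians of 51.2% and 5 over all promoters, and held none of the letters searched. The Cntn4 stretch, with 70.0% G and C and 20 CpG, held 1 AP-1 sequence and 3 GC boxes. Of the other 4 matched members, only Cntn6 held a match, 1 copy of TGACG. Cntn3 and Cntn5 had 30.0% and 34.8% G and C and 0 CpG. These matches describe letters in a window and not binding.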

How the data were processed

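The deposited counts are whole numbers of reads per gene symbol, without normalization. The authors' methods name Subread for alignment to the rat genome Rnor 6.0 and featureCounts with an Ensembl annotation, summed by symbol; the submitters' processing notes list STAR, featureCounts and edgeR. Which aligner made the counts is not settled here. The kit keeps strand, but the strand setting of the counting is not stated, so reads of overlapping or antisense genes are uncertain. The authors also deposited tables of their PTX comparisons (fold changes, test statistics and p-values), which were not used.

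A gene was tested where 2 or more libraries each held over 20 reads of it. TMM factors (1.81 to 1.93 in somata, 0.486 to 0.57 in processes) and glmQLFit and glmQLFTest of edgeR 4.0.16 in R 4.3.3 were applied to all 8 libraries, with 1 coefficient per condition. Adjustment was after Benjamini and Hochberg, over 14309 genes in each of 5 contrasts. SE was obtained by dividing each log2 fold change by the root of its F value. Log2 CPM used a prior count of 2. The test was checked on simulated data. Members and lists were chosen with earlier results of these data known. Named were all members, for each the 3 nearest genes among those averaging 5 CPM or more, from each pathway list up to 4 genes called per PTX contrast, and the most abundant gene of each marker list; the neighbours Nfasc and Chl1 were chosen after their values were seen.

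The replicate numbers come from the labels. The difference of replicate 2 from replicate 1 across genes correlated positively between all 6 pairs of conditions (r = 0.274 to 0.54), so the numbers were taken to pair the libraries. Replicates of a condition differed by more than sampling noise (chi-square per degree of freedom 9.11 to 21.1).

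Tried as alternatives were DESeq2 1.42.0, edgeR's likelihood ratio test, upper quartile or library size scaling, the mitochondrial genome left out, no filter or at least 10 reads in every library, the replicate block, only the libraries compared, and each library left out in turn.

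Further marker lists were read in the same way, and 1 list is not reported here. The 7 astrocyte markers, led by Gfap, summed to 2894 to 4106 CPM in somata and 11015 to 14433 CPM in processes. The 5 oligodendrocyte precursor markers, led by Olig1, summed to 236 to 359 and 394 to 563 CPM. Microglia markers, led by Csf1r, summed to at most 1.40 CPM, and those of fibroblasts and endothelium, led by Col1a1, to between 11.4 and 35.2 CPM. Cldn5 was at 0 in all libraries, and Gjb6 of the astrocyte list in replicate 2 of processes PTX. Cx3cr1 and C1qa were at 0 in all processes libraries, and Cx3cr1 also in replicate 2 of somata control. The microglia list had 0 genes tested. No tested gene of the other 3 lists was called with PTX, but with the replicate block Aqp4 was lower and Dcn and Lum were higher in somata, and Slc1a3 was higher in processes.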

Additional observations from a re-analysis of the deposited data

How the results depend on the processing

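Of the member values under settings other than a left-out library, 279 kept direction and side of the threshold. With direction kept, 14 gained a call and 2 lost their call. Another 13 reversed, and were counted as reversed even where they also passed the threshold. With a library left out these counts were 242, 1, 11 and 26. The cause was not tested. With PTX in somata 513 genes were called, against 972 by the likelihood ratio test, 1141 without a filter, 2002 with the replicate block and 116 to 568 with a library left out; members called were 1 against 2, 3, 3 and 0 to 1. In processes 535 became 949, 1129, 1601 with the block, 299 with only the libraries compared and 97 to 481; members called were 1 against 2 without a filter, 2 with the block and 0 to 1. The interaction had 0 genes, against 4 (likelihood ratio test), 4 (DESeq2), 10 (no filter) and 15 (replicate block). Library size scaling called 13462 genes between compartments in control and 13499 in PTX cultures, against 6823 and 7121, and 7 members in each; control cultures had 3 members called, 1 with DESeq2, 5 with upper quartile and 1 to 3 with a library left out. The replicate block gained Cntn5 and Cntn6 in somata, Cntnap1 in processes and Cntn5 between compartments of PTX cultures, and changed no other member call. Reversals came from library size scaling for Cntn4 with PTX (0.0464 in somata, 0.0326 in processes, -0.0138 for the interaction), Cntn1 with PTX in processes (0.0221), and between compartments Cntn3 (-1.79 in control, -1.59 in PTX cultures), Cntn1 (-1.78), Cntn5 (-1.32) and Cntnap1 (-1.64) in PTX cultures. Upper quartile reversed Cntn3 in control (-0.17) and Cntn1 in PTX cultures (-0.13), and at least 10 reads in every library the same values (-0.0321 and -0.0209). With a library left out, the lone library of a condition being assumed to vary like the others, signs changed for Cntn3 (-0.57 to 0.43), Cntn4 (-0.0527 to 0.0066) and Cntnap1 (-0.0437 to 0.20) with PTX in somata; Cntn1 (-0.0718 to 0.0203), Cntn3 (-0.33 to 0.61), Cntn4 (-0.18 to 0.17), Cntn5 (-0.36 to 0.12) and Cntn6 (-0.47 to 0.16) in processes; Cntn3 (-0.36 to 0.75) and Cntn4 (-0.16 to 0.19) for the interaction; Cntn3 (-0.51 to 0.61) and Cntn5 (-0.40 to 0.12) between compartments in control and Cntn3 (-0.15 to 0.64) and Cntn6 (-0.37 to 0.0213) in PTX cultures. Of the 21 most similar pairs, 6 were shared under Pearson correlation and 20 with a prior count of 0.5. The list genes called with PTX were put through the same alternatives after their values were seen. Counts of 18 to 70 per processes library limit the precision for Cntn2.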
